A study of Danio rerio with 6 samples.

Results

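The genes described here are AP-1 and immediate early genes of the zebrafish (Danio rerio), chosen by name with earlier results of these data known. They are fosab, fosb, jun, junba, junbb, ier2a, ier2b, egr1, atf3 and btg2. Of these 10 symbols, 8 are rows under their own names among the 11218 genes of the deposited table, and egr1 was not analysed here. The row LOC100331484 carries the gene number that RefSeq (GRCz12tu) gives for ier2b; it is described beside ier2a and stands outside the counts of the 8. RNA came from head cells of embryos at 48 hours post fertilization, in 3 libraries of scarb2a mutants, numbered 1, 2 and 3, and 3 libraries of wild type siblings, numbered 1, 3 and 4. scarb2a encodes a zebrafish counterpart of LIMP-2, a lysosomal membrane protein. Both genotypes carried the reporter TgBAC(scar2ba:KalTA4; UAS-mKate2), spelled as in the labels, in which the activator KalTA4 is placed under scarb2a regulatory sequence and switches on a red fluorescent protein. Each library was made from 5000 live reporter-positive cells sorted out of a pool of 50 heads, after digestion with Liberase, trypsin and DNAse that both genotypes shared. The gate thus rests on the regulatory sequence of the mutated gene, the animals of a library are pooled, and the labels name the mutant without its allele.

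Immediate early genes are switched on within minutes of a stimulus, without new protein synthesis, because their promoters are bound by factors that kinases activate. AP-1 is a dimer of basic leucine zipper proteins. Jun proteins pair with each other or with Fos proteins, Fos proteins need a Jun partner, and ATF proteins such as ATF3 can pair with Jun proteins. Growth factors, neuronal activity, wounding and cell stress induce these genes, and the enzymatic dissociation of tissue is known to do so as well.

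The libraries held between 1560238 and 2086990 recovered counts each. The mutated gene itself was near the detection limit and did not check the labels: scarb2a was listed at 1, 5.9 and 4.5 normalized counts in mutants 1, 2 and 3, against 3.5, 2.2 and 1.6 in wild type 1, 3 and 4, from 12 and 7 counts in total. Mutant 1 stood apart in markers of red blood cells, whose summed level was 2276 in it, 37.7 and 383.4 in mutants 2 and 3, and between 46.6 and 61.8 in wild type. Results are therefore also given without that library. The labels call the libraries biological replicates of pooled heads. In a bulk sample, more cells of a type and more RNA per cell cannot be told apart.

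Genes of this group were higher in the scarb2a mutant libraries. In all 8 genes every mutant value lay above every wild type value, as it did for 17.9% of the 9647 genes tested. None lay wholly below wild type, as 16.7% of genes tested did. 7 of the 8 rose and none fell by limma (threshold 0.05 after Benjamini-Hochberg correction over every gene tested), where 10.9% of genes rose and 8.5% fell; fosb did not pass. On recovered counts edgeR called 7 higher and none lower, beside 11.1% and 8.39% of all genes, and DESeq2 did the same, beside 6.45% and 4.23%. The lowest fitted log2 fold change of the 8 was 0.44, so limma could call none of them lower at any threshold. For 6 of the 8 the fitted log2 fold change was at least 0.5, against 16.6% of genes tested. The median log2 fold change, mutant minus wild type on the log2(value + 1) scale, was 0.78 for the 8 genes and -0.01 for all genes tested. Together the 8 genes held 0.584, 0.628 and 0.662% of all counts in mutants 1, 2 and 3, against 0.365, 0.391 and 0.446% in wild type 1, 3 and 4. The 95% exact intervals of these shares ran from 0.573 to 0.673% in mutants and from 0.355 to 0.455% in wild type, and cover counting error only.

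**Figure D1:**
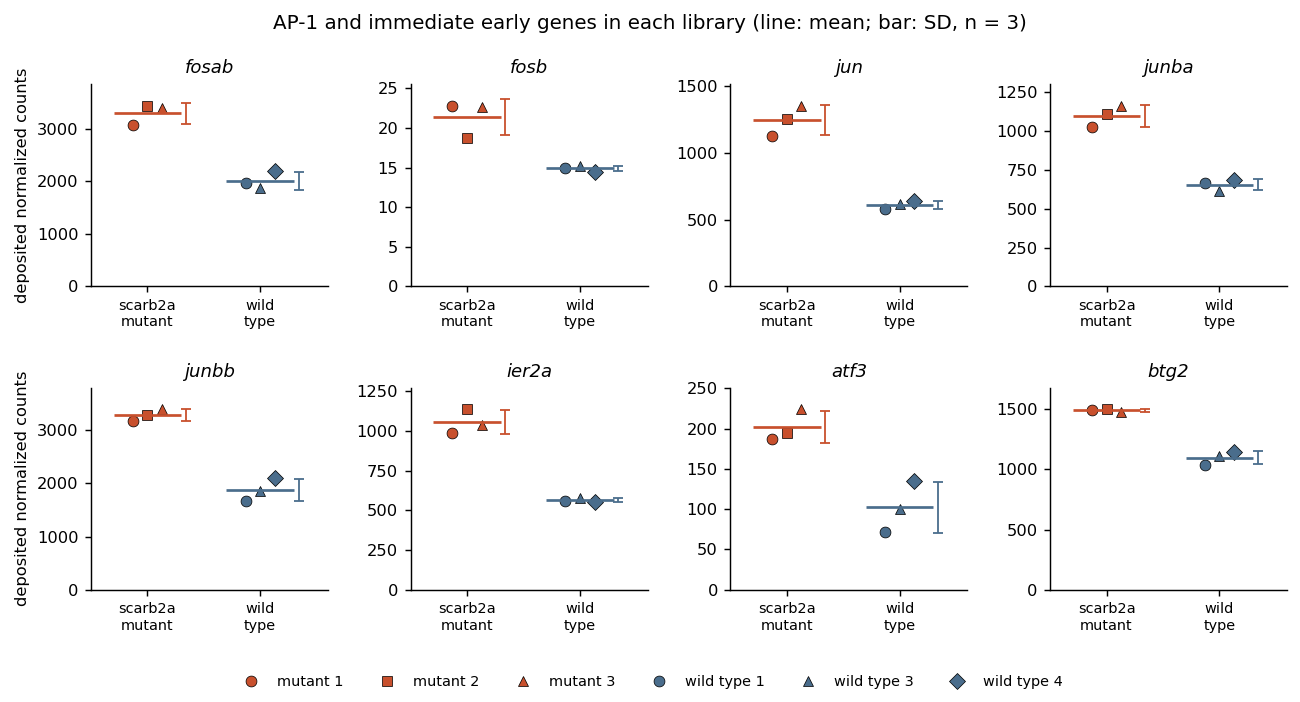
Deposited normalized counts (vertical axis, starting at 0) of the 8 genes in each library, with scarb2a mutants on the left and wild type on the right of each panel; horizontal lines are means and bars the SD of 3 libraries. In every panel the 3 mutant points lie above the 3 wild type points, by the narrowest margin in fosb, whose values are between 14.5 and 22.8.

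The Fos genes differed in how much could be read from them. fosab, the counterpart of mammalian FOS, had 3072.7, 3438.4 and 3389.2 normalized counts in mutants 1, 2 and 3, against 1963.3, 1872.9 and 2200.1 in wild type 1, 3 and 4. The lowest mutant library was 1.40 times the highest wild type library. fosab averaged 3300.1 ± 198 in mutants and 2012 ± 169 in wild type (SD, n = 3 each), which fitted as 0.72 ± 0.072 on the log2 scale (SE; limma adjusted p = 6.05e-07). fosb, which encodes another Fos protein, stayed near the lower end of what these libraries resolve. It had 22.8, 18.8 and 22.7 normalized counts in mutants 1, 2 and 3, against 15, 15.2 and 14.5 in wild type 1, 3 and 4, from 66 counts in mutants and 45 in wild type. Its log2 fold change of 0.49 had a 95% interval from -0.04 to 1.02 and did not pass (limma adjusted p = 0.196), so that neither no change nor a doubling was outside the interval. The spread of fosb among libraries, 10.6% of the mean in mutants and 2.42% in wild type, was smaller than the 21.3 and 25.8% that counting alone gives at its depth.

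The 3 Jun genes rose in the mutant libraries. jun encodes c-Jun, the main activating partner of Fos proteins. It had 1126, 1254.1 and 1351 normalized counts in mutants 1, 2 and 3, against 578.3, 613.8 and 639.4 in wild type 1, 3 and 4. The lowest mutant was 1.76 times the highest wild type library, the widest such gap among the 8 genes. jun averaged 1244 ± 113 in mutants and 610.5 ± 30.7 in wild type (SD, n = 3 each), 2.04 times as much, and fitted as a difference of 1.02 ± 0.079 on the log2 scale (SE; limma adjusted p = 1.84e-08). By p value it ranked 43 of 9647 genes.

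junba and junbb are paralogues of mammalian JUNB, a Jun protein that is a weaker activator than c-Jun in mammalian cells. junba had 1024.6, 1110.5 and 1162.4 normalized counts in mutants 1, 2 and 3, against 668.3, 613.8 and 686 in wild type 1, 3 and 4. junbb had 3185.5, 3287.8 and 3399.1 in mutants 1, 2 and 3, against 1675.9, 1865.4 and 2100.5 in wild type 1, 3 and 4. Neither gene's groups overlapped, and the wild type libraries of junbb were spread more widely (11.3% of their mean) than its mutant libraries (3.25%). The log2 fold changes were 0.74 ± 0.076 for junba (SE; limma adjusted p = 7.23e-07) and 0.81 ± 0.076 for junbb (limma adjusted p = 2.11e-07).

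Members outside the Fos and Jun families rose too. ier2a, which encodes a nuclear protein of the immediate early response, had 989.4, 1138.2 and 1038.1 normalized counts in mutants 1, 2 and 3, against 557.5, 578.1 and 554.2 in wild type 1, 3 and 4. Its wild type libraries had an SD of 2.30% of their mean, and its lowest mutant was 1.71 times the highest of them. The log2 fold change was 0.90 ± 0.075 (SE; limma adjusted p = 5.10e-08). LOC100331484, the row with the gene number of the paralogue ier2b, had 1014.2, 1063.9 and 1099.8 normalized counts in mutants 1, 2 and 3, against 749.1, 696.1 and 653.8 in wild type 1, 3 and 4. Its groups did not overlap either, and its log2 difference was 0.60 ± 0.075 (SE; limma adjusted p = 9.75e-06), between 0.55 and 0.65 when each library was left out. btg2, which encodes an antiproliferative protein that recruits a deadenylase and is a p53 target in mammals, showed the smallest fitted change of the 8 genes. It had 1492.4, 1501.8 and 1478.8 normalized counts in mutants 1, 2 and 3, against 1039.9, 1109.7 and 1145.4 in wild type 1, 3 and 4. The mutant libraries differed from each other by less than counting alone gives (0.776% against 2.56% of the mean), and the log2 fold change was 0.44 ± 0.068 (SE; limma adjusted p = 1.01e-04). Without the mean-variance trend the adjusted p of btg2 in limma was 0.0620.

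atf3 encodes a stress-induced repressor and activator of the ATF family, which the factor ATF4 switches on in mammalian cells. It had 187.3, 194.2 and 224 normalized counts in mutants 1, 2 and 3, against 71.6, 99.6 and 134.9 in wild type 1, 3 and 4. Here the wild type libraries were far apart, with wild type 1 low and wild type 4 high, yet the highest of them lay below the lowest mutant. The spread in wild type, 31.1% of the mean, exceeded the 9.65% from counting. atf3 averaged 201.8 ± 19.5 in mutants and 102.0 ± 31.7 in wild type (SD, n = 3 each), and its fitted log2 difference was 1.02 ± 0.163 (SE; limma adjusted p = 1.55e-04). Leaving out wild type 1 gave 0.79 and leaving out wild type 4 gave 1.24, both past the threshold (limma adjusted p = 2.62e-04 and 1.25e-05).

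In order of the fitted difference the genes were jun, atf3, ier2a, junbb, junba, fosab, fosb and btg2. The 95% intervals of all neighbours in this order overlapped. The interval of btg2 (0.30 to 0.58) ended below those of jun (0.86 to 1.19), atf3, ier2a and junbb. Without mutant 1 the same 7 genes passed, with log2 fold changes of 1.09 for jun, 1.07 for atf3, 0.95 for ier2a, 0.84 for junbb, 0.79 for junba, 0.77 for fosab and 0.44 for btg2. Scaling each library to the same total lowered the median of all genes tested to -0.12, and the 7 genes still passed with 0.91 for jun and 0.33 for btg2 at the ends.

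**Figure D2:**
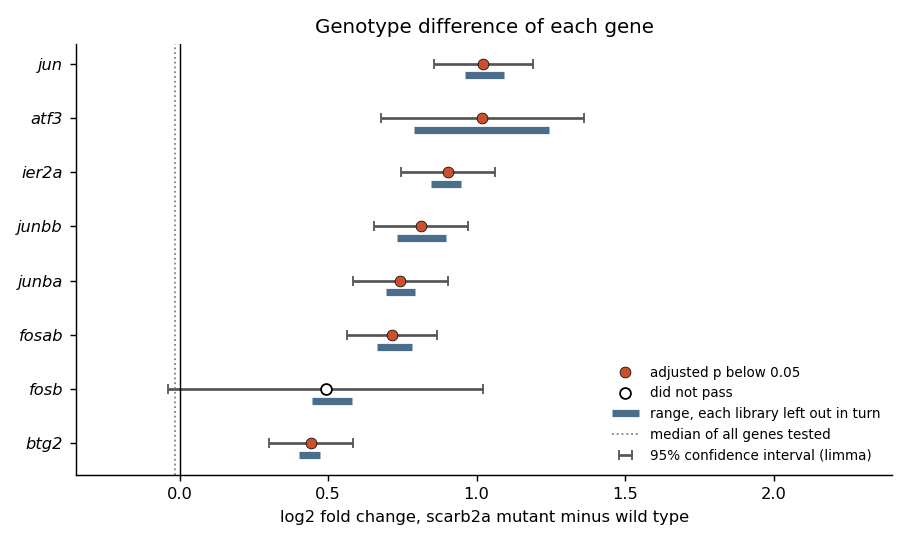
Fitted log2 fold change of each gene (horizontal axis, scarb2a mutant minus wild type; 0 means no difference) with its 95% confidence interval, and below it the range of the values obtained when each library is left out in turn. The intervals of 7 genes lie above 0, the interval of fosb reaches -0.04, and leaving out a library moves atf3 most, between 0.79 and 1.24.

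Within a genotype the genes shared part of their spread. Mutant 1 had the lowest mutant value of 6 of the 8 genes and mutant 3 the highest of 4. Wild type 4 had the highest wild type value of 6 genes, and wild type 1 the lowest of 4. The median deviation from the own genotype's mean over the 8 genes was -0.09 in mutant 1, 0.06 in mutant 3, -0.05 in wild type 1 and 0.07 in wild type 4 on the log2 scale, where the median over all genes tested lay within 0.0103 of 0. Among the wild type libraries, wild type 4 had the highest total count (2086990) and wild type 1 the lowest (1560238), and among the mutants the totals of mutants 3 and 1 were 2011118 and 1838121. The part of depth in this order was not tested.

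The ratios between family members were compared library by library. The log2 ratio of jun over junba was 0.14, 0.18 and 0.22 in mutants 1, 2 and 3, against -0.21, 0 and -0.10 in wild type 1, 3 and 4. Every mutant ratio lay above every wild type ratio, with a difference of 0.28 (exact permutation test, two-sided, p = 0.1, the smallest that 3 against 3 libraries allow; 0.3 adjusted over 3 ratios). The log2 ratio of junba over junbb averaged -1.58 ± 0.047 in mutants and -1.51 ± 0.163 in wild type (SD, n = 3 each), and the groups overlapped (exact permutation test, p = 0.8, adjusted 0.8). For fosab over fosb the difference was 0.22, with counts of fosb that leave it imprecise (exact permutation test, p = 0.2, adjusted 0.3).

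**Figure D3:**
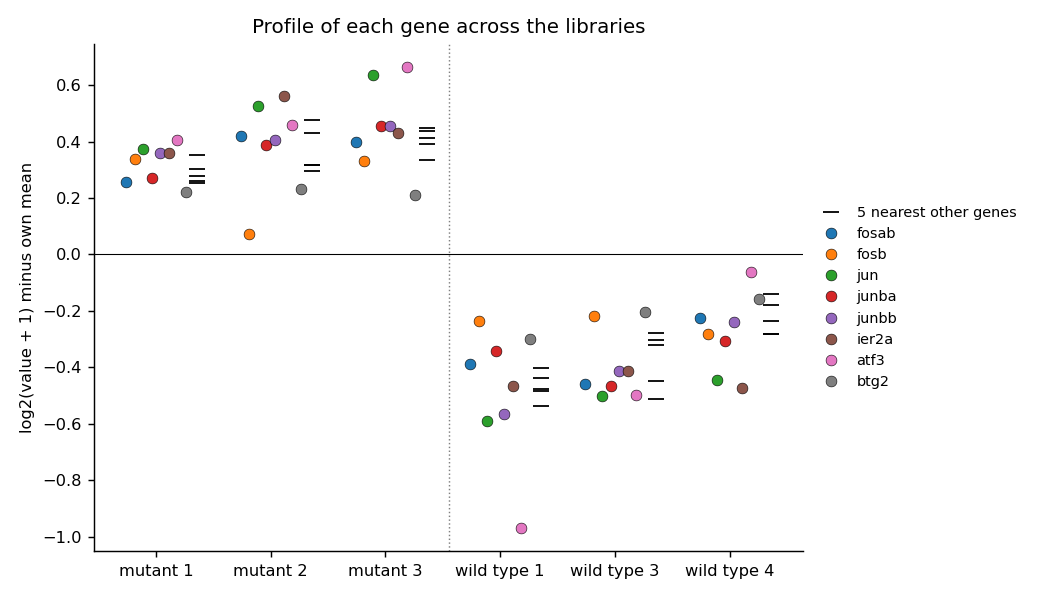
Level of each gene in each library relative to its own mean over 6 libraries (vertical axis, log2(value + 1) scale), with the mutants left of the dotted line and wild type right of it; dots are the 8 genes and dashes the 5 other genes whose values lie nearest to the mean of the 8. All 8 genes lie above 0 in the mutants and below 0 in wild type, and the widest spread between genes is in wild type 1, where atf3 lies lowest.

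Among 3342 other genes with a mean of at least 50, the 5 nearest to the mean profile of the 8 genes over the 6 libraries were id3, tbl3, sri, serp1 and nolc1. Their root mean square distances ran from 0.0569 to 0.0803 on the log2 scale, and those of the 8 genes from 0.0415 for junbb to 0.242 for atf3. The 5 were picked for the smallest distances, so their place within that range carries no weight. id3, which encodes an inhibitor of basic helix-loop-helix factors, had 197.7, 207 and 226.7 normalized counts in mutants 1, 2 and 3, against 118.9, 134.2 and 140.6 in wild type 1, 3 and 4. sri, the sorcin gene, had 151.1, 170.4 and 163.2 in those mutants, against 92.3, 85.5 and 100.4 in wild type. This likeness is a description over 6 libraries, 3 of each genotype.

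Of 7 other genes of the AP-1 family tested, 1 rose and 1 fell (14.3% each, beside 10.9% higher and 8.5% lower among all genes), with a median log2 fold change of -0.06. Neither passed in DESeq2 or in limma without a trend. jdp2b, which encodes a repressing Jun partner, had 275.3, 277.4 and 362.7 normalized counts in mutants 1, 2 and 3, against 195.1, 242.5 and 268.3 in wild type 1, 3 and 4, and rose by 0.37 (limma adjusted p = 0.0375). That call was lost with equal totals, without mutant 3 (0.24; limma adjusted p = 0.219) and without wild type 1 or 3 (limma adjusted p = 0.174 and 0.0654). mafba, of the large Maf factors, fell to 36.1 ± 5.66 in mutants, against 55.8 ± 2.97 in wild type (SD, n = 3 each; limma adjusted p = 0.0150), a call lost with a replicate block and without mutant 1 or wild type 1 (limma adjusted p = 0.0576 and 0.0510 for the left-out libraries). fosl2, a Fos-related gene, had a log2 fold change of 0.62 (limma adjusted p = 0.281) and mafa one of -0.16 (limma adjusted p = 0.745).

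Other Fos genes lay below the filter and are named after their values were seen. fosl1a, which encodes the Fos-related antigen FRA-1, had 4.1, 3 and 6.3 normalized counts in mutants 1, 2 and 3, against 0, 0 and 0.8 in wild type 1, 3 and 4. These are 14 counts in mutants and 1 in wild type, a ratio of 13.8 with a 95% exact interval from 2.1 to 583.6 that covers counting error only. With no filter the adjusted p in limma was 0.0447, and it ran from 0.0377 to 0.200 when each library was left out in turn, passing only without wild type 4. fosaa, the paralogue of fosab, had 2.1, 2 and 0 in mutants 1, 2 and 3, against 2.3, 4.3 and 4.8 in wild type 1, 3 and 4, and did not pass without the filter (limma adjusted p = 0.280).

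Immediate early genes outside the family, a list also chosen with earlier results of these data known, rose more often than the background share. Of 51 tested, 16 rose, 31.4% against 10.9% of all genes, and 2 fell (3.92%, against 8.5%), with a median of 0.32; limma without a trend called 9 higher. cebpb, a leucine zipper factor of acute responses, rose by 0.87 and socs3b, which damps cytokine signalling, by 0.91 on the log2 scale (limma adjusted p = 2.48e-05 and 3.24e-05). mycb, a Myc gene, rose to 371.8 ± 10.1 normalized counts in mutants, against 244.8 ± 19.9 in wild type (SD, n = 3 each; limma adjusted p = 7.05e-05). hbegfa, which encodes a ligand of the epidermal growth factor receptor, rose by 1.17 (limma adjusted p = 1.28e-04). Among abundant genes that did not pass, btg1, of the same family as btg2, was at -0.22 (limma adjusted p = 0.0642). rhoab, a small GTPase gene whose standing as an immediate early gene is doubtful, was at -0.02 (limma adjusted p = 0.906). btg1 passed as lower with equal totals and with a minimum mean of 20.

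Several familiar immediate early genes are named after their values were seen. egr2a, a zinc finger factor of the family of egr1, had 134.5, 139.7 and 164.1 normalized counts in mutants 1, 2 and 3, against 113.1, 70.4 and 80.3 in wild type 1, 3 and 4, and rose by 0.75 (limma adjusted p = 0.00140). egr4, of the same family, had overlapping groups and a log2 fold change of 0.20 (limma adjusted p = 0.232). klf10, a growth factor response gene, had 9.3, 11.9 and 10.9 in mutants 1, 2 and 3, against 0, 2.2 and 3.2 in wild type 1, 3 and 4 (limma adjusted p = 0.00659). cyr61, which encodes a matrix-associated growth response protein, rose by 0.57 (limma adjusted p = 7.52e-04). nr4a1, an orphan nuclear receptor gene whose symbol 2 rows share, was at 0.81 in the row of that name (limma adjusted p = 0.0608). The other row of nr4a1 is not described here. dusp1, a phosphatase gene that ends MAP kinase signals, was at 0.27 (limma adjusted p = 0.0647). Neither of the rows described passed. npas4a, which neuronal activity induces, went the other way. It had 33.1, 30.7 and 39.9 in mutants 1, 2 and 3, against 78.5, 66 and 49.8 in wild type 1, 3 and 4, and fell by 0.87 on the log2 scale (limma adjusted p = 0.00241). gadd45gb.1, a growth arrest gene, fell by 0.37 (limma adjusted p = 0.0448). That call was lost in DESeq2, in limma without a trend and with quantile normalization. It was also lost without mutant 1 or 3 or wild type 1 or 3 (limma adjusted p up to 0.224).

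**Figure D4:**
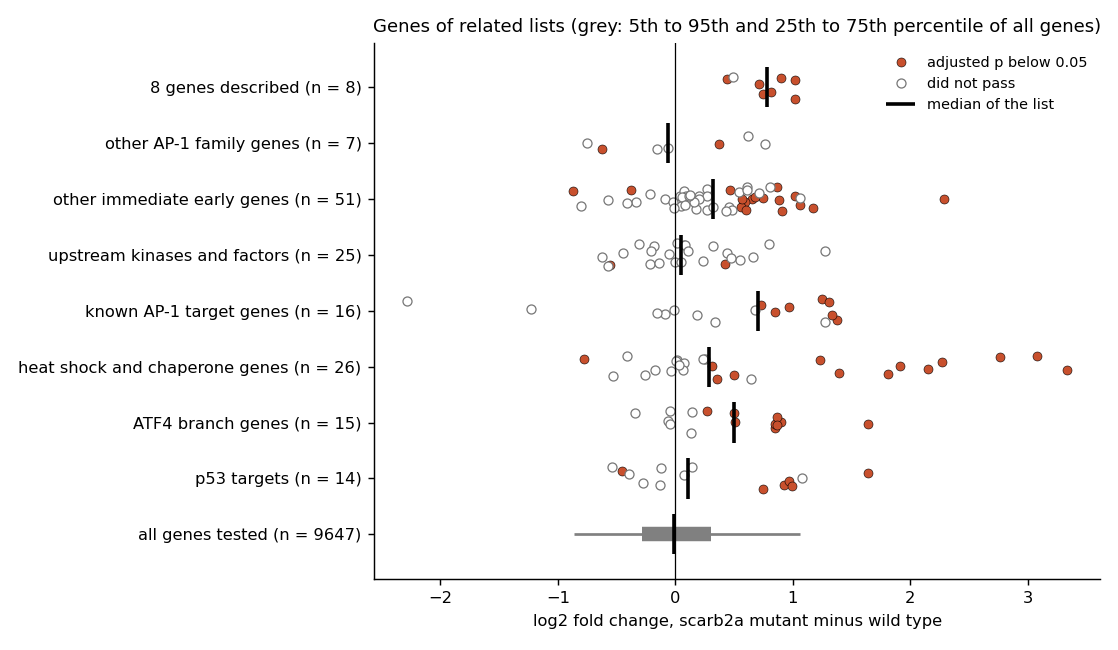
Log2 fold change (horizontal axis, scarb2a mutant minus wild type) of each gene tested in the 8 genes described and in related lists, with filled dots for genes past an adjusted p of 0.05 and a bar at each list's median; the lowest line gives percentiles of all 9647 genes tested. The 8 genes lie between 0.44 and 1.02, while the lists of upstream factors and other AP-1 family genes have medians of 0.05 and -0.06.

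Of 25 kinases and factors that switch these genes on, 1 rose and 1 fell (4.00% each, beside 10.9 and 8.5% of all genes); the difference from those shares was not tested. The list's median was 0.05, and -0.06 once totals were made equal. creb1a, a factor that binds the promoters of FOS and other early genes in mammals, had 266, 244.7 and 234.8 normalized counts in mutants 1, 2 and 3, against 382, 343.2 and 371.9 in wild type 1, 3 and 4. It fell by 0.56 on the log2 scale (limma adjusted p = 1.79e-04) and passed whichever library was left out. mapk11, a p38 kinase gene, rose by 0.42 (limma adjusted p = 0.0201), a call lost in DESeq2, without a trend, with a replicate block, with equal totals and without mutant 1 or 2 or wild type 4 (limma adjusted p up to 0.0628 with a library left out). creb1b, at 0.01, and mapk10, a JNK gene at -0.20, did not pass (limma adjusted p = 0.967 and 0.376). These kinases are switched by phosphorylation, which transcript levels do not show.

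Genes listed as AP-1 targets in mammalian cells rose in part. Of 16 tested, 7 rose (43.8%) and none passed as lower, beside 10.9 and 8.5% of all genes, with a median of 0.70. edgeR called 9 higher, DESeq2 5 and limma without a trend 6. At an unadjusted p of 0.05 limma found 2 lower, edgeR called 1 lower (tubb6, which also passed in limma with equal totals or no trend) and DESeq2 none, and mmp13a passed as lower without mutant 1 or wild type 1. anxa1a, an annexin gene, had 73.5, 77.3 and 105.2 normalized counts in mutants 1, 2 and 3, against 32.3, 28.1 and 35.3 in wild type 1, 3 and 4. It rose by 1.38 on the log2 scale (limma adjusted p = 1.01e-05). anxa2a, another annexin gene, rose by 1.25, s100a10b, its S100 partner, by 0.97 and ccnd1, the cyclin D1 gene, by 0.73 (limma adjusted p = 7.05e-05, 0.00125 and 3.10e-04). vim, the vimentin gene, was at 0.34 (limma adjusted p = 0.0505) and gclc, of glutathione synthesis, at -0.01 (limma adjusted p = 0.983). The call of vim depended on the setting. It passed as higher in edgeR, with quantile normalization, a pseudocount of 5, a minimum mean of 20 or summed rows, and without wild type 1. It did not pass in DESeq2 or in limma without a trend. Of the 20 target genes present in the table, 4 are also on other lists used here, among them anxa1a, an epidermis marker. The part of cell types in the rise of the target genes was not tested.

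Part of the heat shock genes, which tissue dissociation also induces, differed between the same libraries. Of 26 heat shock and chaperone genes tested, 12 rose, 1 fell and 13 did not pass (46.2% higher and 3.85% lower, beside 10.9 and 8.5% of all genes), with a median of 0.28. limma without a trend called 6 higher. The small heat shock protein gene hspb1 had 260.8, 253.6 and 204 normalized counts in mutants 1, 2 and 3, against 19.6, 33.6 and 30.5 in wild type 1, 3 and 4. On the log2 scale hsp70.3 rose by 3.34 and hsp90aa1.1 by 2.15 (limma adjusted p = 2.46e-08 and 3.80e-05). serpinh1b, the collagen chaperone gene, rose by 1.81 (limma adjusted p = 4.34e-07). hsp90aa1.2, named after its values were seen, fell by 0.78 (limma adjusted p = 1.03e-04). It and hsp90aa1.1 are paralogues, as are the hsp70 genes, and whether reads were shared between such copies was not tested. ubc and hspa8, abundant genes of the list, were at -0.04 and 0.01 and did not pass (limma adjusted p = 0.694 and 0.929), while ubc passed as lower with equal totals or quantile normalization. The summed level of the list was 18707 to 19257 in mutants and 15778 to 16137 in wild type. The part of dissociation in the difference of the 8 genes was not tested.

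Stress branches that share a gene with the group were examined beside it. Of 15 genes of the ATF4 branch, the amino acid and protein stress response that includes atf3, 9 rose (60.0%, beside 10.9% of all genes). edgeR called 9 higher, DESeq2 7 and limma without a trend 6. None was called lower by limma (beside 8.5% of all genes), edgeR or DESeq2, with 1 lower at an unadjusted p of 0.05 in limma. Without mutant 1, and with equal totals, vldlr passed as lower. phgdh, of serine synthesis, rose by 0.87 on the log2 scale and ddit3, which encodes the stress factor CHOP, by 0.85 (limma adjusted p = 7.43e-07 and 1.40e-04). slc3a2b, an amino acid transporter gene, was at -0.06 (limma adjusted p = 0.788). Of 14 genes listed as p53 targets, btg2 left out, 5 rose and 1 fell (35.7 and 7.14%, beside 10.9 and 8.5% of all genes). Their median was 0.11, and without mutant 1 or wild type 3 the counts were 3 and 0. The risers included sesn2, which the ATF4 list also holds, at 1.64 and rps27l, listed as zgc:136826, at 0.99 (limma adjusted p = 2.53e-04 and 2.00e-04). rrm2, a nucleotide reductase gene whose standing as a p53 target is doubtful, rose by 0.75 (limma adjusted p = 5.56e-04). ccng2, a cyclin gene, fell by 0.45 (limma adjusted p = 0.00878). That call was lost in limma without a trend and without mutant 1 or wild type 3 (limma adjusted p = 0.0536 and 0.0542 for the left-out libraries). tp53inp1 was at -0.28 and baxa, a cell death gene, at 0.15, and neither passed (limma adjusted p = 0.260 and 0.570).

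Markers of cell types moved with the genotypes as well. The counts below stand beside 10.9% higher and 8.5% lower among all genes tested in limma. The 13.3% of radial glia markers that rose lay near the first of these shares. Of 16 mesenchyme markers tested 14 rose, with a summed level of 4852 to 5590 in mutants and 1942 to 2393 in wild type, and of 15 epidermis markers 12 rose, with 8645 to 8934 and 4240 to 6127. Endothelial markers summed to between 428.3 and 472.4 in mutants and between 292.1 and 371.7 in wild type, and 6 of 14 rose and 1 fell, or 3 and 1 without mutant 3 or wild type 3. Macrophage markers summed to between 398.3 and 693.7 in mutants and between 295.6 and 403.7 in wild type, with 2 of 9 higher, or 1 without mutant 2 or 3 or wild type 4. Of 23 neuron markers 12 fell, or 7 without mutant 2, with 12924 to 13414 in mutants and 15896 to 16681 in wild type, and of 15 radial glia markers 2 rose and 6 fell, with 2180 to 2321 and 2814 to 3147 (1 rose without mutant 2 or 3 or wild type 3 or 4). All 11 lens markers tested fell, with a summed level of 20.8 to 73.4 in mutants and 2461 to 3262 in wild type. None of 14 muscle markers passed in limma, with 2 higher at an unadjusted p of 0.05, none called by edgeR or DESeq2 and 1 called higher without wild type 4, and they summed to between 276.4 and 495 in mutants and between 210.2 and 490.7 in wild type. Of 8 red cell markers 7 rose, or 3 of 5 tested without mutant 1. The other, cahz, named after its values were seen, passed as lower, a call lost in edgeR, in DESeq2 and when any library other than mutant 1 was left out. In limma without a trend 6 epidermis, 2 endothelial and 2 red cell markers passed as higher and 6 neuron markers as lower. No macrophage marker passed there, with 2 higher at an unadjusted p of 0.05; edgeR called 3 of them higher and DESeq2 1. DESeq2 called 3 endothelial markers higher. The globin genes hbae1, hbae1.3, hbbe1.1, hbbe1.2 and hbbe3 were at 0 in all wild type libraries. No marker of the other lists was at 0 throughout a genotype. The part of these cell types in the difference of the AP-1 and immediate early genes was not tested.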

How the data were processed

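By the labels' protocols, transcript ends of sorted head cells were read by bulk MARS-seq. The build was danRer11, per the submitters' processing notes; no source used here states the aligner or counter. The authors deposited a normalized signal per gene. Of its 67308 values, 99.997% were multiples of what 1 count is worth in that library (tolerance 0.0505), so whole counts were recovered; edgeR 4.0.16 and DESeq2 1.42.0 on them called 1879 and 1030 genes, against 1873 by limma. The exact intervals of the count shares and of the fosl1a ratio cover counting error only. The intervals of log2 fold changes come from the limma fit and rest on the spread between libraries.

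limma 3.58.1 (R 4.3.3) was fitted to log2(value + 1) with a mean-variance trend and genotype alone, over 9647 genes averaging at least 5. A run on simulated data came first, and its pass mark for recovery covered only folds larger than those of the members. Exact tests used scipy 1.17.1 in Python 3.11.15. The members and lists were chosen with earlier results of these data known, so no list was tested as a set; of 488 list symbols, 302 were found directly and 9 under an older name. Members were left out of other lists, and each list names up to 4 genes that passed, by p, and the 2 most abundant that did not. Other settings tried were pseudocounts of 0.5 or 5, a minimum mean of 20 or none, equal totals, quantile normalization, no trend, a replicate block, summing rows of 1 symbol, and leaving out each library. P-values rest on the spread between these libraries, which limma moderates toward that of other genes of similar level. Values are not corrected for length. Ratios between family members were compared between genotypes and not read as relative amounts, and mean levels ranked the genes of a list for naming.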

Additional observations from a re-analysis of the deposited data

How the results depend on the processing

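The difference of the 7 genes that passed kept its direction under all 17 alternatives. Its call held in all of them except that of btg2 in limma without a trend (adjusted p = 0.0620). In that setting the other 6 passed less clearly, with limma adjusted p from 0.00811 for jun to 0.0227 for fosab and 0.0485 for atf3. fosb did not pass in any of the 16 alternatives that tested it. The median of the 8 genes was 0.67 with equal totals, against 0.78. Of the genes in the 7 related lists, 49 rose and 6 fell by limma, where 10.9% and 8.5% of all genes did. Without a trend limma called 29 of them higher, and equal totals gave 11 lower. The share of all genes called in each direction was not computed for those settings. Changes in the counts of a list under them, here and above, are therefore not read as particular to the lists. The difference in the junba over junbb ratio, -0.07, ran from -0.12 to 0.025 when each library was left out, above 0 only without wild type 1; the cause was not tested. The labels share replicate numbers 1 and 3 between genotypes, and same-numbered libraries did not deviate together (correlations of 0.0429 and -0.0095). With a replicate block 7 of the 8 genes passed, with a median of 0.80. That fit compares the 4 libraries that share a number and leaves 1 residual degree of freedom. Its spread is borrowed from other genes, so its p-values are not set beside the others. Calls kept or lost with a replicate block, here and above, carry less weight than those of the other settings. With no filter, fosl1a lost its call in 5 of the 6 fits that left out a library. Depth limits fosb, fosl1a and fosaa, which have few counts per library.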
